A study of Mus musculus with 12 samples.

Results

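The cyclins that drive the cell cycle and the kinases they activate were followed in primary mouse adult fibroblasts (MAFs) made senescent by X-rays, in the presence and absence of the clock gene Bmal1. They were chosen by name, as the cyclins of the cell cycle and 2 of their kinases: the D-type cyclins Ccnd1, Ccnd2 and Ccnd3, the E-type cyclins Ccne1 and Ccne2, the A-type cyclin Ccna2, the B-type cyclins Ccnb1 and Ccnb2, and the kinases Cdk1 and Cdk2. These are 10 of the 49315 gene identifiers in the count tables, and all 10 passed the filter on low counts that left 17416 genes to test.

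MAFs were grown from the ears of C57BL/6 female mice that were wild type (WT) or BMAL1 -/- (KO), the latter lacking BMAL1, the activator at the core of the circadian clock. Control cells of each genotype were sham irradiated and senescent cells received 20 Gy of X-rays. The study's methods give a further period of culture after irradiation, of weeks, for the senescent cells and none for the control cells, so the effects of irradiation and of time in culture cannot be told apart. All 4 groups shared culture at low oxygen, a pulse of 100 nM dexamethasone for 2 h, which sets the clocks of the cells to a common phase, and collection 12 h later. Each group held 3 libraries of poly(A) RNA. The labels do not say whether the libraries of a group came from separate animals or cultures, so p-values measure the spread between these libraries, which may be technical. WT and KO libraries were deposited as separate count tables, and any effect of the table cannot be told apart from that of the genotype.

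Cyclins are regulatory proteins that bind and activate cyclin-dependent kinases (CDKs). D-type cyclins act with Cdk4 and Cdk6 early in G1 and respond to mitogens and adhesion, E-type cyclins act with Cdk2 at entry into S phase, Ccna2 acts with Cdk2 and Cdk1 through S phase and G2, and B-type cyclins act with Cdk1 to drive mitosis. Senescent fibroblasts have left the cell cycle for good while they stay alive and metabolically active, and they are known for high levels of CDK inhibitors.

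Library totals lay between 23923030 and 31736083 counts, at which 3 counts equal 0.101 to 0.135 CPM, the count of a gene relative to its library total, here after edgeR's TMM (trimmed mean of M-values) scaling of that total. No library repeated another. Arntl, which encodes BMAL1, was lower in every KO library than in every WT library. It stood at 31.5 ± 1.71 CPM in WT control and 13.2 ± 1.83 in KO control cells (mean ± SD, n = 3). In senescent cells the values were 36.1 ± 1.10 and 26.6 ± 1.13, log2 fold changes of 0.20 in WT and 1.02 in KO cells. The genotypes were thus closer in senescent cells. Counts of the whole gene do not tell an intact transcript from a disrupted one. The study reported loss of the Bmal1 transcript in KO cells. The 10 fibroblast markers, all tested, summed to 38704 to 71976 CPM, of which Fn1 alone held 26629 to 45633. Single markers moved with senescence in both directions. In WT cells Col1a1 went from 7213 to 7459 CPM in control to 1726 to 1787 in senescent libraries. Dcn went from 27.7 to 30.8 CPM up to 287 to 312. Cartilage genes were also present and moved with the groups: the 8 chondrocyte markers, 7 of them tested, summed to 8745 to 10809 CPM in WT control, 2665 to 3092 in WT senescent, 5958 to 8272 in KO control and 886.9 to 1085 in KO senescent libraries. The part of cartilage cells in the values below was not tested, and in these bulk samples fewer cells of a type and less RNA per cell cannot be told apart. Markers of keratinocytes, macrophages, endothelium, melanocytes, skeletal muscle and adipocytes each summed to at most 59.5 CPM.

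In senescent MAFs of both genotypes the D-type cyclins Ccnd1 and Ccnd2 rose, Ccnd3 stayed within 1.12-fold of its control level, and the other 7 genes fell. In WT cells Ccnd1 rose 2.66-fold and Ccnd2 1.98-fold, while the falls ran from 3.50-fold for Ccne1 to 12.3-fold for Ccna2. In KO cells Ccnd1 rose 3.99-fold and the falls ran from 3.15-fold for Ccne1 to 20.9-fold for Ccna2. A gene is said here to have changed where its adjusted p in edgeR's quasi-likelihood (QL) test was under 0.05, and to have been called where its log2 fold change was also over 1 in size. In WT cells 1 of the 10 genes was called higher (11.6% of all genes tested were) and 7 were called lower (5.9% were). Without the fold threshold 2 rose (29.2% of all genes) and 7 fell (27%). In KO cells 1 was called higher (11.2%) and 7 lower (7.58%), and without the fold threshold 2 rose (28.5%) and 8 fell (28.6%). The median log2 fold change of the 10 genes was -2.27 in WT and -2.62 in KO cells, against 0.02 and -0.00 over all genes tested.

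The scaling of the libraries moved with senescence. TMM factors were 0.926 to 0.967 in control and 1.04 to 1.07 in senescent libraries. Where library totals were used without TMM, the median log2 fold change of all genes was 0.19 in WT and 0.15 in KO senescence, and the genes called in WT senescence went from 2012 higher and 1027 lower to 2505 higher and 755 lower. The 9 members other than Ccnd3 kept their direction in both senescence comparisons under that scaling. For Ccnd3 the WT difference became 0.20, about the shift of all genes, and passed, so that 3 members rose in WT cells under that scaling.

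**Figure D1:**
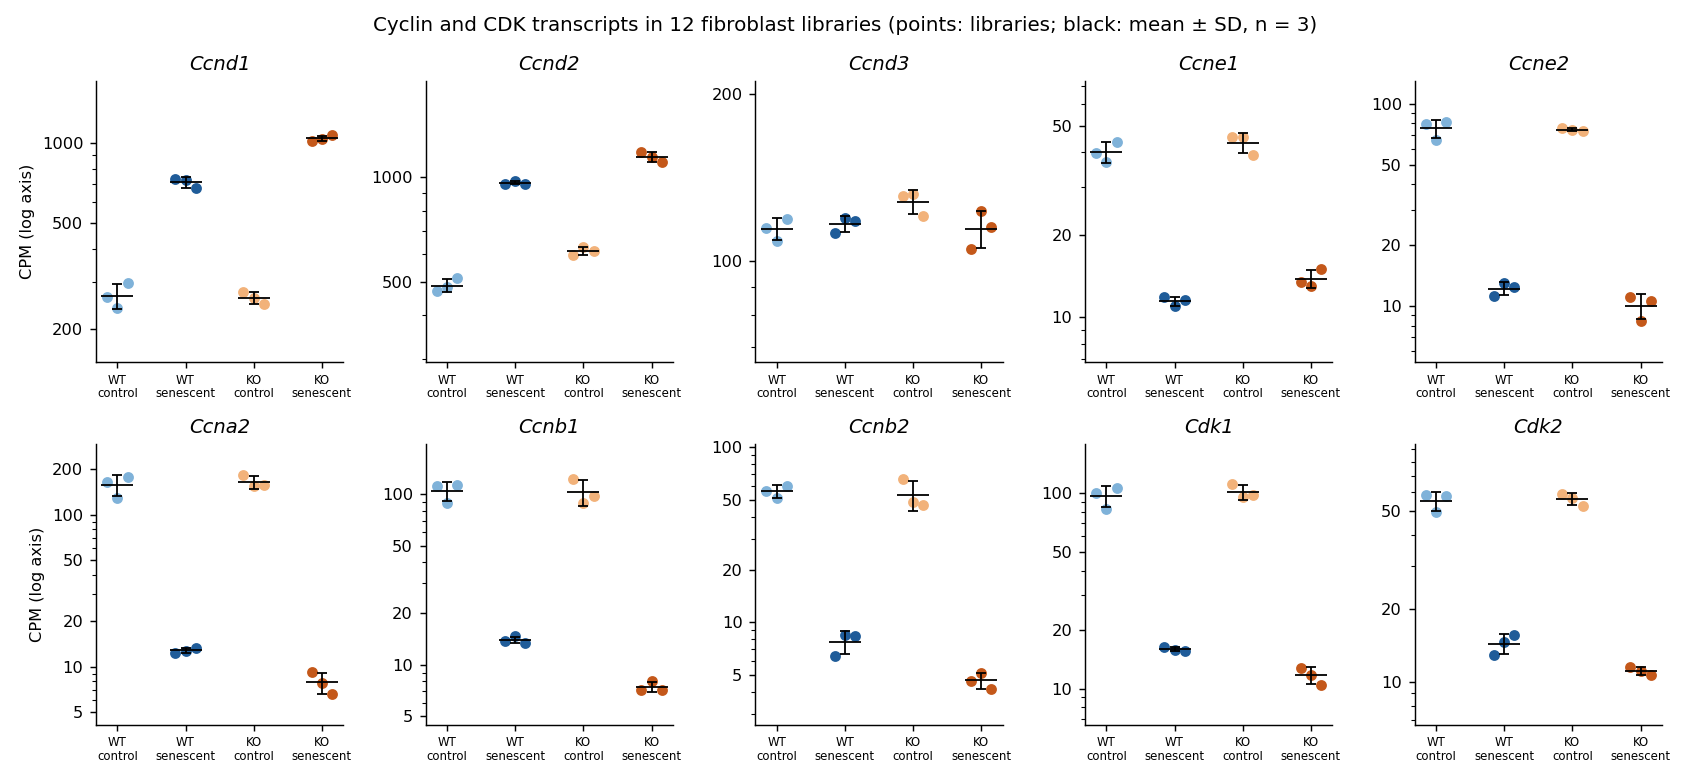
Each panel shows a gene in CPM on a log axis that does not start at 0, with a point for each of the 12 libraries and the mean ± SD of the 3 libraries of a group in black. The senescent libraries lie above the control libraries for Ccnd1 and Ccnd2, at about the same level for Ccnd3 and below them for the other 7 genes.

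Ccnd1, the cyclin through which mitogens and adhesion signals reach the G1 kinases, was counted at 263, 241 and 297 CPM in the WT control libraries and at 730.1, 727 and 675 CPM in the WT senescent ones. In KO cells it stood at 274, 262 and 247 CPM in control and at 1020.1, 1035 and 1068 CPM in senescent libraries. The control libraries of both genotypes overlapped, all 6 senescent libraries were above them, and every KO senescent library was above every WT senescent one. The rise was 1.41 ± 0.06 (log2 fold change ± SE, edgeR QL, adjusted p = 1.08e-13) in WT and 2.00 ± 0.07 in KO cells (adjusted p = 6.44e-16). The difference between these rises, the interaction, was 0.58 ± 0.09 (adjusted p = 0.000143). Ccnd1 (ENSMUSG00000070348, GRCm38 chr7:144929931-144939925, minus strand) shares 1100 exon bases with LTO1 on the opposite strand, which stood at 20.0 to 25.9 CPM in all libraries.

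Ccnd2 (ENSMUSG00000000184, chr6:127125162-127152193, minus strand), a D-type cyclin that answers many growth signals, was counted at 469, 481 and 510.4 CPM in WT control and at 956, 975 and 958 CPM in WT senescent libraries. The KO values were 597, 630.4 and 614 CPM in control and 1182, 1145 and 1107 CPM in senescent libraries. All 4 groups were apart, with KO above WT in each condition. Its rise of 0.98 ± 0.05 in WT (adjusted p = 3.37e-13) and 0.90 ± 0.05 in KO cells (adjusted p = 1.2e-12) stayed just under the fold threshold. With library totals without TMM both rises were over it, and the WT rise was over it without WT control replicate 3. The rises did not pass the test of a difference between genotypes (-0.08 ± 0.07, adjusted p = 0.417), and the KO excess over WT was 0.33 ± 0.05 in control (adjusted p = 5.5e-05) and 0.25 ± 0.05 in senescent cells (adjusted p = 0.000571).

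Ccnd3 (ENSMUSG00000034165, chr17:47505051-47599691, plus strand), the D-type cyclin known for its role in lymphocytes, stayed within a narrow range. It was counted at 115, 109 and 119 CPM in WT control, at 113, 120.0 and 118 in WT senescent, at 131, 132 and 121 in KO control and at 105, 123 and 115 in KO senescent libraries. Only the KO control libraries stood apart, above those of WT control and WT senescent cells, with KO control and KO senescent libraries overlapping. The WT difference was 0.03 ± 0.06 (adjusted p = 0.675). A fall of 0.16 on the log2 scale in KO cells passed the test (SE 0.06, adjusted p = 0.0271) but did not under several of the alternatives. The interaction was -0.19 ± 0.08 (adjusted p = 0.118). Ccnd3 shares 361 exon bases with Bysl on the opposite strand, which stood at 33.5 to 48.4 CPM, and Ccnd2 shares 740 with a pair of genes that had at most 14 counts in a library.

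Since longer transcripts give more counts, levels of different genes were compared per kilobase of exon. The length used was that of all annotated exons merged, 4709 bases for Ccnd1 and 9409 for Ccnd2, not of the transcript expressed. On that scale Ccnd1 and Ccnd2 were near each other in control cells, at 56.7 and 51.8 CPM per kb in WT and 55.4 and 65.2 in KO cells. In senescent cells Ccnd1 led with 151 against 102 in WT and 221 against 122 in KO cells. In CPM, without scaling by length, Ccnd2 was above Ccnd1 in every group, so this lead depends on the lengths used. Ccnd3 was at 13.03 to 14.6 CPM per kb in every group. Ccnd1 thus made up 46.6 ± 1.84% of D-type cyclin counts per kb in WT control and 56.6 ± 1.07% in WT senescent cells, and 41.0 ± 1.46% and 62.1 ± 1.18% in KO cells (SD, n = 3). The Ccnd1 share was 15.6 percentage points higher in senescence over both genotypes, whereas the Ccnd2 share differed by -9.17 points and the Ccnd3 share by -6.42 points. In each of the 3 shares the senescent and control libraries of a genotype did not overlap, and the exact 2-sided permutation test within genotypes gave p = 0.005, the smallest that its 400 arrangements allow (0.006 adjusted over 6 shares). The 3 shares sum to 100% in a library and are not independent, and a difference of the shares between genotypes was not tested.

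**Figure D2:**
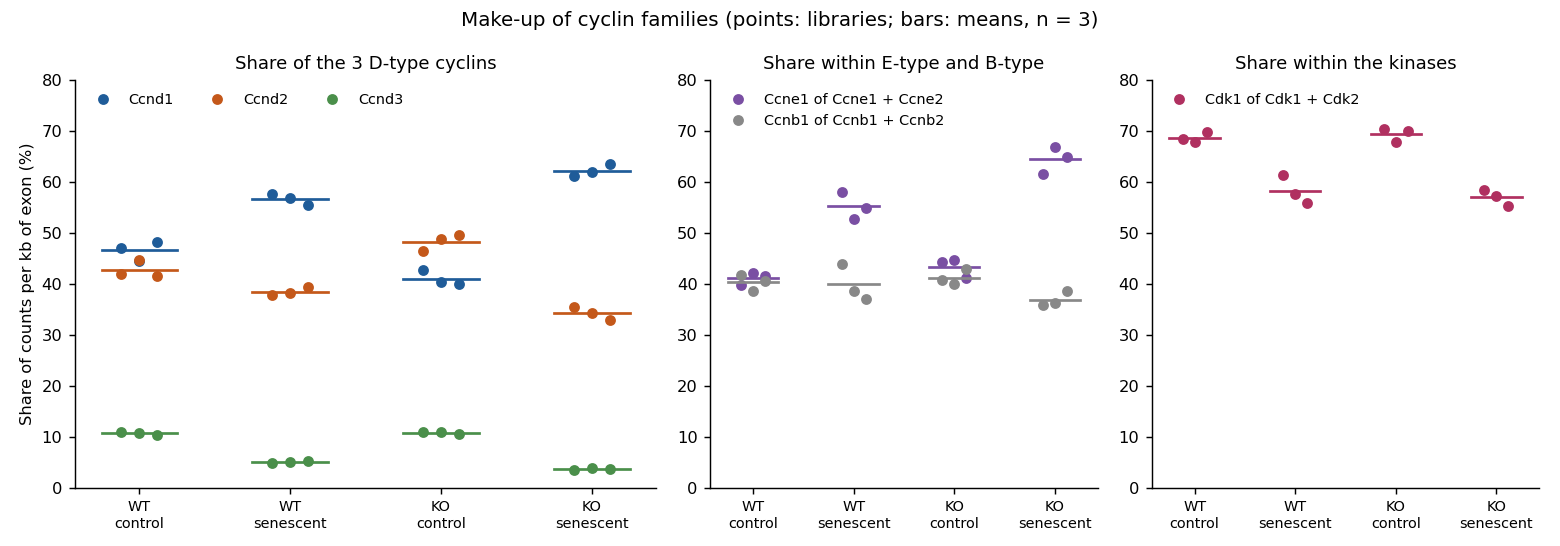
The share of each gene within its family is plotted in percent of the counts per kb of exon, with a point for each library and the groups side by side. Senescent libraries had a higher Ccnd1 share among D-type cyclins, a higher Ccne1 share among E-type cyclins and a lower Cdk1 share of Cdk1 and Cdk2, while the Ccnb1 shares of B-type cyclins overlapped between conditions in WT cells.

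The E-type cyclins, which bring cells into S phase, fell in both genotypes and by unequal amounts. Ccne1 (ENSMUSG00000002068, chr7:38097984-38107534, minus strand) was counted at 39.9, 36.8 and 43.7 CPM in WT control and at 11.8, 10.98 and 11.6 in WT senescent libraries, and at 45.6, 45.6 and 39.1 in KO control and 13.5, 12.98 and 14.96 in KO senescent libraries. Its log2 fold change was -1.81 ± 0.09 in WT (adjusted p = 2.55e-13) and -1.65 ± 0.09 in KO cells (adjusted p = 6.36e-13). Ccne1 was the fallen gene for which KO senescent cells did not have the lower level: all 3 KO senescent libraries were above all 3 WT senescent ones (0.27 ± 0.09, adjusted p = 0.0361), which did not pass in several alternatives.

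Ccne2 (ENSMUSG00000028212, chr4:11191351-11204779, plus strand) fell more steeply. Its values were 79.4, 66.4 and 81.0 CPM in WT control, 11.2, 12.96 and 12.5 in WT senescent, 75.6, 74.3 and 73.2 in KO control and 11.1, 8.48 and 10.6 in KO senescent libraries. The log2 fold changes were -2.63 ± 0.09 in WT (adjusted p = 3.61e-15) and -2.89 ± 0.09 in KO cells (adjusted p = 1e-15). KO senescent libraries lay below WT senescent ones without overlap, by -0.28 ± 0.10, with an adjusted p of 0.0523, which missed the threshold. Part of its exons lies opposite Ints8, which stood at 56.8 to 64.4 CPM in all libraries. Ccne1 went from 41.1 ± 1.24% to 55.2 ± 2.72% of E-type cyclin counts per kb in WT and from 43.3 ± 1.87% to 64.4 ± 2.68% in KO cells, a mean gain of 17.6 percentage points (exact permutation test, p = 0.005, the smallest possible).

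Ccna2, the partner of Cdk2 in S phase and of Cdk1 in G2, had the largest fall of the 10 genes. Its levels were 163, 129 and 178 CPM in WT control, 12.4, 12.8 and 13.2 in WT senescent, 183, 154 and 157 in KO control and 9.19, 7.80 and 6.65 in KO senescent libraries. Senescent cells kept 8.15% of the control level in WT and 4.79% in KO cells. The control groups overlapped, and every KO senescent library was below every WT senescent one. The log2 fold change was -3.62 ± 0.14 in WT (adjusted p = 4.91e-10) and -4.39 ± 0.14 in KO cells (adjusted p = 1.3e-10), with an interaction of -0.77 ± 0.20 (adjusted p = 0.0169). Ccna2 (ENSMUSG00000027715, chr3:36564865-36572150, minus strand) shares 510 exon bases with Exosc9 on the opposite strand. Exosc9 moved the other way, from 24.4 to 28.2 CPM in control up to 35.2 to 40.5 in senescent libraries.

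Ccnb1, the mitotic partner of Cdk1, was counted at 111, 89.4 and 114 CPM in WT control and at 13.8, 14.7 and 13.5 in WT senescent libraries. KO cells had 124, 89.3 and 97.2 CPM in control and 7.14, 8.01 and 7.16 in senescent libraries. The KO senescent libraries all lay below the WT senescent ones, 1.88-fold on average, while the control groups overlapped. Of the 10 genes it had the largest interaction (-0.89 ± 0.19, adjusted p = 0.00595), from falls of -2.90 ± 0.13 in WT (adjusted p = 7.73e-10) and -3.79 ± 0.14 in KO cells (adjusted p = 1.02e-10). Ccnb1 (ENSMUSG00000041431, chr13:100778650-100786570, minus strand) has near-identical copies elsewhere in the genome, so that its own counts are uncertain: 14.9% of its 100-base stretches also occur in Ccnb1-ps, Gm12856, Gm4870 or Gm8416. Ccnb1-ps itself had at most 27 counts in a library.

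Ccnb2, the Golgi-associated B-type cyclin, was counted at 56.5, 51.5 and 60.5 CPM in WT control, 6.40, 8.49 and 8.33 in WT senescent, 65.6, 48.6 and 47.0 in KO control and 4.63, 5.14 and 4.15 in KO senescent libraries. The pattern was that of Ccnb1, with overlapping control groups and KO senescent libraries at the bottom. The log2 fold changes were -2.86 ± 0.14 in WT (adjusted p = 3.39e-10) and -3.53 ± 0.15 in KO cells (adjusted p = 6.14e-11). The interaction of -0.67 ± 0.21 had an adjusted p of 0.036 and was lost when any of 6 libraries was left out. Ccnb2 (ENSMUSG00000032218, chr9:70407692-70421547, minus strand) shares no exon bases with another gene. Ccnb1 made up 40.3 ± 1.54% of B-type cyclin counts per kb in WT control, 39.9 ± 3.62% in WT senescent, 41.2 ± 1.495% in KO control and 36.8 ± 1.44% in KO senescent cells, a mean difference of -2.40 points between conditions that did not pass (exact permutation test, p = 0.125), although the KO control and KO senescent libraries did not overlap.

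Cdk1, the kinase of mitotic entry, was counted at 99.7, 82.7 and 105 CPM in WT control and at 16.3, 15.8 and 15.6 in WT senescent libraries, and at 111, 94.7 and 96.9 in KO control and 12.8, 11.7 and 10.5 in KO senescent libraries. The WT senescent libraries were close together (SD 0.350 CPM) and all above the KO senescent ones. Cdk1 changed by -2.59 ± 0.09 in WT (adjusted p = 4.06e-14) and by -3.12 ± 0.10 in KO cells (adjusted p = 4.54e-15), with an interaction of -0.52 ± 0.13 (adjusted p = 0.00847). The gene (ENSMUSG00000019942) lies on chr10:69335146-69352938, minus strand, and shares no exon bases with another gene.

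Cdk2 (ENSMUSG00000025358, chr10:128697939-128705031, minus strand), the kinase of the E-type cyclins and of Ccna2, fell less than Cdk1. It was counted at 58.1, 49.6 and 57.8 CPM in WT control, 12.96, 14.6 and 15.6 in WT senescent, 59.2, 56.9 and 52.7 in KO control and 11.5, 11.1 and 10.7 in KO senescent libraries. Again the control groups overlapped and the KO senescent libraries were all below the WT senescent ones. Its log2 fold change was -1.94 ± 0.08 in WT (adjusted p = 2.74e-14) and -2.34 ± 0.08 in KO cells (adjusted p = 2.03e-15), and the interaction was -0.40 ± 0.12 (adjusted p = 0.0169). Cdk1 accordingly went from 68.6 ± 0.97% to 58.2 ± 2.77% of the counts per kb of the 2 kinases in WT and from 69.3 ± 1.38% to 56.9 ± 1.58% in KO cells, a mean difference of -11.4 percentage points (exact permutation test, p = 0.005, the smallest possible).

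Per kb of exon the order of the genes was thereby rearranged, and the places within a group depend on the lengths used. In control cells Ccna2 and Ccnb2 followed Ccnd1 and Ccnd2, at 38.4 and 36.7 CPM per kb in WT and 40.3 and 35.1 in KO cells, and Ccnd3 stood ninth with only Cdk2 below it. In senescent cells Ccnd3 was the third, because the genes above it other than Ccnd1 and Ccnd2 had dropped under it. With Cdk2, these 7 genes stood between 2.31 and 5.05 CPM per kb in WT and between 1.76 and 5.19 in KO senescent cells. All 7 remained well above the detection floor of 3 counts in every senescent library.

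The response to senescence differed between genotypes for 6 of the 10 genes. Loss of transcripts was larger in KO than in WT cells for Ccna2, Ccnb1, Ccnb2, Cdk1 and Cdk2, and the gain of Ccnd1 was larger. In the interaction 1 gene passed with a positive value (9.24% of all genes tested did) and 5 with a negative one (11.7% did, and the 5 became 3 without WT senescent replicate 3 or KO senescent replicate 3), and none was called at the fold threshold (1.15% and 2.51%). The median interaction of the 10 genes was -0.33, against -0.03 over all genes tested. All 10 values were under 1 in size. Among control cells 1 gene passed, Ccnd2, which was higher in KO (8.07% of all genes were), and 0 were lower (4.96%) by edgeR's QL test, by DESeq2 or at an unadjusted p under 0.05. The 6 genes of the interaction had adjusted p-values of 0.634 to 0.935 there. At the fold threshold 0 of the 10 were called among control cells (1.36% of all genes higher, 1.18% lower) and 0 among senescent cells (1.29% and 2.19%), by edgeR or DESeq2. Among senescent cells 3 passed as higher in KO (11.9%), namely Ccnd1 at 0.55 ± 0.06 (adjusted p = 2.09e-06), Ccnd2 and Ccne1, and 5 were lower (11.8%).

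The 5 genes that were lower in KO senescent cells were Ccna2, both B-type cyclins and both kinases, whereas Ccne2 missed the threshold. The log2 difference from WT senescent cells was -0.70 ± 0.16 for Ccna2 (adjusted p = 0.00774), -0.91 ± 0.15 for Ccnb1 (adjusted p = 0.000884), -0.74 ± 0.17 for Ccnb2 (adjusted p = 0.00619), -0.45 ± 0.10 for Cdk1 (adjusted p = 0.00344) and -0.37 ± 0.09 for Cdk2 (adjusted p = 0.00376). Chondrocyte marker sums were also lower in KO than in WT senescent libraries (886.9 to 1085 against 2665 to 3092 CPM), and their part in these differences was not tested.

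**Figure D3:**
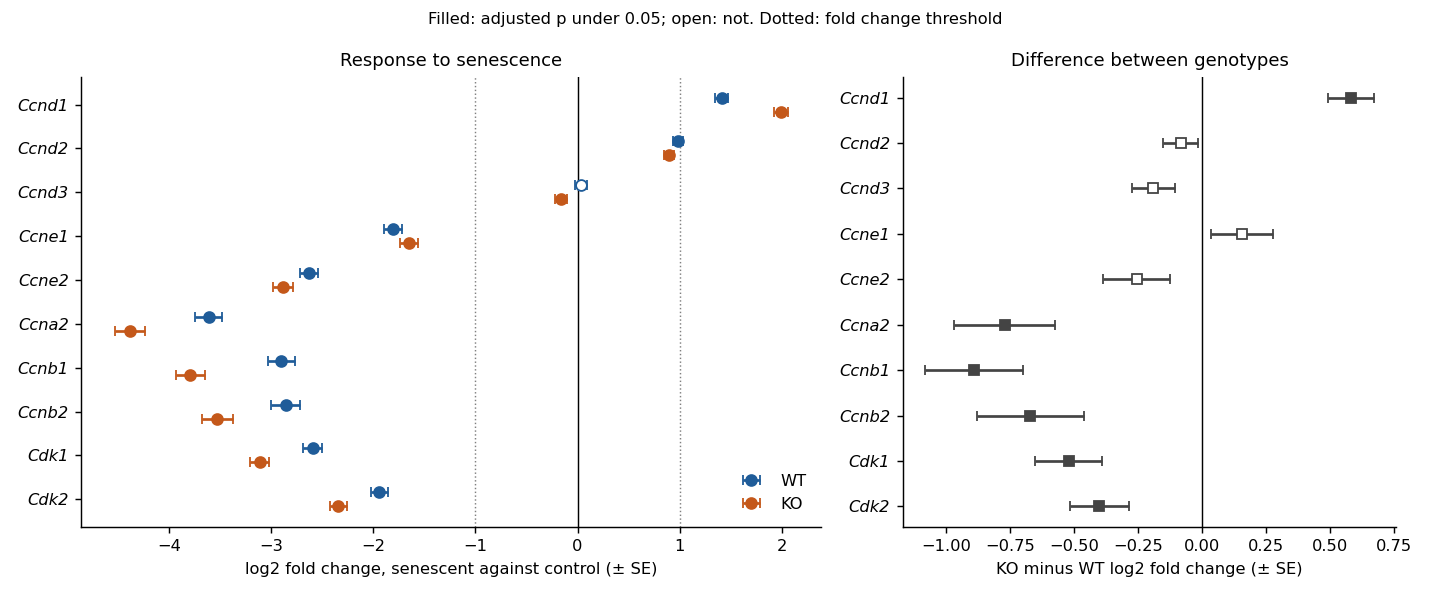
The log2 fold change of each gene from control to senescent cells is drawn with its SE for WT and KO cells, 3 libraries a group. Ccnd1 rose more in KO (2.00) than in WT cells (1.41), and Ccna2 had the lowest value of each genotype, -3.62 in WT and -4.39 in KO cells.

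In every control library and in KO senescent replicate 3, Ccna2, Ccnb1, Ccnb2 and Cdk1 all lay on the same side of their group means. Their mean deviation from the group on the log2 scale was lowest in WT control replicate 2 (-0.20) and highest in KO control replicate 1 (0.22). Over the 12 libraries the deviations from the group means had correlations of 0.56 (Ccnb2 and Cdk1) to 0.96 (Ccna2 and Cdk1) for the 6 pairs of these genes. With Ccnd1 the same 4 genes had correlations of 0.33 to 0.66, a range that overlaps the first (Pearson r of log2 CPM, given as a description because the genes share libraries and depth).

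Sequences upstream of some of the genes that fell are shown with the motifs that cell cycle genes are known for. These are the CHR element (TTTGAA or TTCGAA), bound by MuvB complexes, the CCAAT box, bound by NF-Y, and E2F sites (here TTTCCCGC, TTTGGCGC or TTTCGCGC). The windows printed, of Cdk1, Ccnb2 and Cdk2, are those with a CHR element or an E2F site. RefSeq windows for GRCm38.p6 matched 6 of the 10 genes (Ccnd3 with 2 starts), and the 250 bases before the annotated start were searched on both strands. Ccnd1, Ccnd2, Ccne2 and Ccna2 had no window, so the gene with the largest fall, Ccna2, was not searched. In capitals are the motif matches as read on the strand of the gene, so that a CCAAT box on the other strand reads ATTGG and the E2F site of Cdk2 reads GCGGGAAA. The windows are chr10:69352913-69353162 for Cdk1, chr9:70421555-70421804 for Ccnb2 and chr10:128705052-128705301 for Cdk2, all on the minus strand and printed 5′ to 3′. The last bases of the Cdk1, Ccne1 and Ccnb1 windows lie inside the gene by the annotation used for coordinates. The whole window of the downstream start of Ccnd3 does too. Matches there are not upstream of the gene by that annotation.
Cdk1: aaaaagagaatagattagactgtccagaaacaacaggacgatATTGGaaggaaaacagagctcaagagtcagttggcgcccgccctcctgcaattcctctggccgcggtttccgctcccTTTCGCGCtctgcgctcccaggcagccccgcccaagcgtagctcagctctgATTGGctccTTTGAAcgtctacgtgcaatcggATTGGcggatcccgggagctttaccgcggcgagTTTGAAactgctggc
Ccnb2: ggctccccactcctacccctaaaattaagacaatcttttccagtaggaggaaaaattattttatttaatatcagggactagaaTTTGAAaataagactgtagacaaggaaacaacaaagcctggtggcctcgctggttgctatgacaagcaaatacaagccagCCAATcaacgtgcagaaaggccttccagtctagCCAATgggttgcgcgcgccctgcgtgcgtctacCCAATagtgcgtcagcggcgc
Cdk2: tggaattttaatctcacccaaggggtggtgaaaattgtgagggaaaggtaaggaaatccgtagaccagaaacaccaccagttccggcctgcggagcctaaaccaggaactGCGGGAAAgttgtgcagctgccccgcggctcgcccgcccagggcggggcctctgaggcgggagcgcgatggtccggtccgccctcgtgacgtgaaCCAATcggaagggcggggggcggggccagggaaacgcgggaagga

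The Cdk1 window held 2 CHR elements, 3 CCAAT boxes and 1 E2F site. The CHR element nearest to its start began 15 bases before it. Ccnb2 had 1 CHR element and 3 CCAAT boxes, the latter beginning 87, 54 and 21 bases before the start. Cdk2 had 1 CCAAT box and 1 E2F site. Of the windows not printed, that of Ccnb1 held 2 CCAAT boxes, that of the downstream start of Ccnd3 held 1, and those of Ccne1 and of the upstream start of Ccnd3 held none of these motifs. Of all 32851 promoter windows of this length, 17.1% held a CHR element, 33.8% a CCAAT box and 1.53% an E2F site. The E-box CACGTG, to which BMAL1 binds with CLOCK (6.02% of all windows), and the AP-1 sites TGACTCA and TGAGTCA (4.46%) were not among the letters of the 7 windows. A match is a description of the sequence and not a site in use, and these windows leave out more distant elements.

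**Figure D4:**
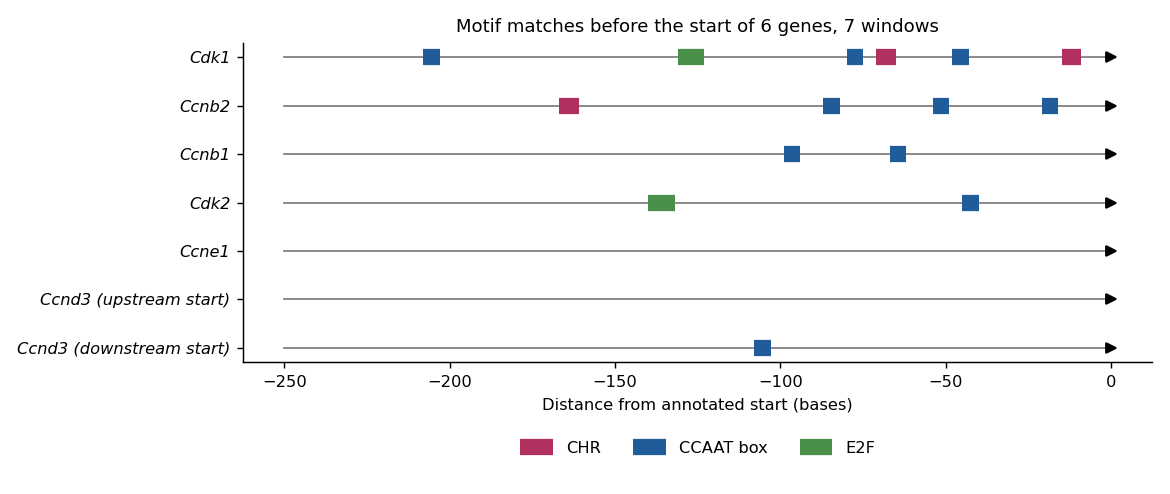
Motif matches are drawn by their distance in bases before the annotated start in the 7 windows of 6 genes. The 3 CCAAT boxes of Ccnb2 are spread over the last 87 bases before the start, and CHR elements appear in the Cdk1 and Ccnb2 windows alone.

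The counts of the lists that follow stand against the shares of all genes tested, of which 29.2% rose and 27% fell in WT senescence, 28.5% rose and 28.6% fell in KO senescence, and 9.24% passed upward and 11.7% downward in the interaction. The G1 kinases and other cyclins of the cycle, a list of 5 genes, had 3 genes with enough counts to test (not Ccna1 and Ccnb3), and all 3 fell in both genotypes (median -0.70 in WT and -0.71 in KO, against 0.02 and -0.00 over all genes). Cdk4, the kinase of the D-type cyclins, stood at 221 ± 10.9 CPM in control and 136 ± 2.65 in senescent WT cells, and at 231 ± 11.9 and 142 ± 5.75 in KO cells (log2 fold changes -0.70 and -0.71). Cdk6, its close relative, changed by -0.52 and -0.30. The D-type cyclins and their kinases therefore moved in opposite directions, apart from Ccnd3. Ccnf, an F-box protein of the cyclin family, changed by -3.16 and -3.45, and 0 of the 3 passed in the interaction by edgeR's QL test (adjusted p from 0.0991 to 0.972) or by DESeq2, with 1 at an unadjusted p under 0.05.

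Among 11 regulators of CDK activity, 8 fell and 0 rose in each genotype by edgeR's QL test, with medians of -1.83 in WT and -1.82 in KO cells. DESeq2 also gave 0 that rose, and at an unadjusted p under 0.05 there were 0 in WT and 1 in KO cells. Plk1, a kinase that activates Cdk1 at mitotic entry, changed by -3.22 in WT and -3.76 in KO cells, and Pkmyt1, which inhibits Cdk1, by -2.84 and -3.34. Wee1, the nuclear kinase that inhibits CDKs and a known clock target, stood at 30.6 ± 2.88 CPM in control and 8.61 ± 0.350 in senescent WT cells (-1.83) and at 36.5 ± 2.44 and 9.19 ± 1.08 in KO cells (-1.99). Activators and inhibitors of Cdk1 were thus lower together. Ccnh and Mnat1, the cyclin and assembly factor of the CDK-activating kinase, did not pass in either genotype (0.04 and 0.13 in WT, 0.16 and -0.05 in KO). In the interaction 1 regulator passed upward and 1 downward, near the shares of all genes (9.24% and 11.7%). These were the phosphatases Cdc25a at 0.53 (edgeR QL, adjusted p = 0.00133) and Cdc25b at -0.72 (adjusted p = 0.00711), named after their values were seen.

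The 7 CDK inhibitors were split. In WT cells 3 rose and 3 fell, and in KO cells 3 rose and 4 fell (medians -0.11 and -0.28), where 29.2% and 27% of all genes rose and fell in WT and 28.5% and 28.6% in KO cells. Cdkn1a, which encodes p21, rose in WT cells from 165 ± 12.9 CPM in control to 622 ± 19.5 in senescence (1.92), and in KO cells from 221 ± 15.4 to 683 ± 38.7 (1.63). Cdkn2b, which encodes p15 and blocks Cdk4 and Cdk6, rose by 1.06 and 1.55. The related Cdkn2c and Cdkn2d fell, with log2 fold changes of -1.22 and -1.23 in WT and -1.75 and -1.81 in KO cells. In the interaction 1 inhibitor passed upward (9.24% of all genes did) and 5 downward (11.7%). The former was Cdkn2a, which encodes p16 among other products, named after its values were seen. It stood at 3.45 ± 0.867 CPM in WT control and 3.19 ± 0.515 in WT senescent cells (-0.11, adjusted p = 0.723). In KO cells it rose from 3.93 ± 0.715 to 9.42 ± 2.78 CPM (1.26), an interaction of 1.36. These counts are of the whole gene and do not separate the p16 transcript. By qPCR the study reported higher p16 expression in irradiated WT cells and a similar increase in KO cells.

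Of 11 genes of cyclin turnover, which mark cyclins for destruction or control that step, 1 rose and 9 fell in WT cells. In KO cells 1 rose and 8 fell (medians -0.85 in WT and -1.09 in KO cells). Ube2c, the ubiquitin-conjugating enzyme of the anaphase-promoting complex, changed by -3.02 and -3.62, and Fbxo5, an inhibitor of that complex, by -2.91 and -3.16. Fbxw7, the F-box protein that recognises cyclin E, was the gene that rose (0.50 and 0.38). Ambra1, which targets D-type cyclins for destruction, did not pass (0.06 and -0.01). In the interaction Ube2c alone passed, at -0.60 (adjusted p = 0.0481), and 0 of the 11 passed downward with DESeq2 size factors and in 6 of 12 fits that left out a library.

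Of the 7 genes of MuvB, B-MYB and FOXM1, the complex and factors that act on CHR elements, 5 fell in each genotype (medians -1.02 and -1.06). Mybl2 changed by -3.73 and -4.14 and Foxm1 by -2.86 and -3.31. The MuvB subunits Lin37 and Lin52 rose in WT cells (0.41 and 0.39) and did not pass in KO cells (0.12 and 0.20), and neither passed in the interaction. Foxm1 passed in the interaction at -0.45 (adjusted p = 0.046), but 0 of the 7 passed downward with DESeq2 size factors, with a replicate block and in 8 of 12 fits that left out a library. The 22 transcriptional and other cyclins and CDKs, most of which do not drive the cycle, were split as well: 3 rose and 10 fell in WT and 5 rose and 9 fell in KO cells, with medians of -0.11 and -0.10. Ccng1, a p53 target, rose by 1.52 and 1.57 and Cdk14 by 0.60 and 0.30, whereas Ccnl2, a splicing cyclin, changed by -0.69 and -0.997 and Cdk16 by -0.52 and -0.40. In the interaction 2 of the 22 passed upward and 4 downward, where 9.24% and 11.7% of all genes did.

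**Figure D5:**
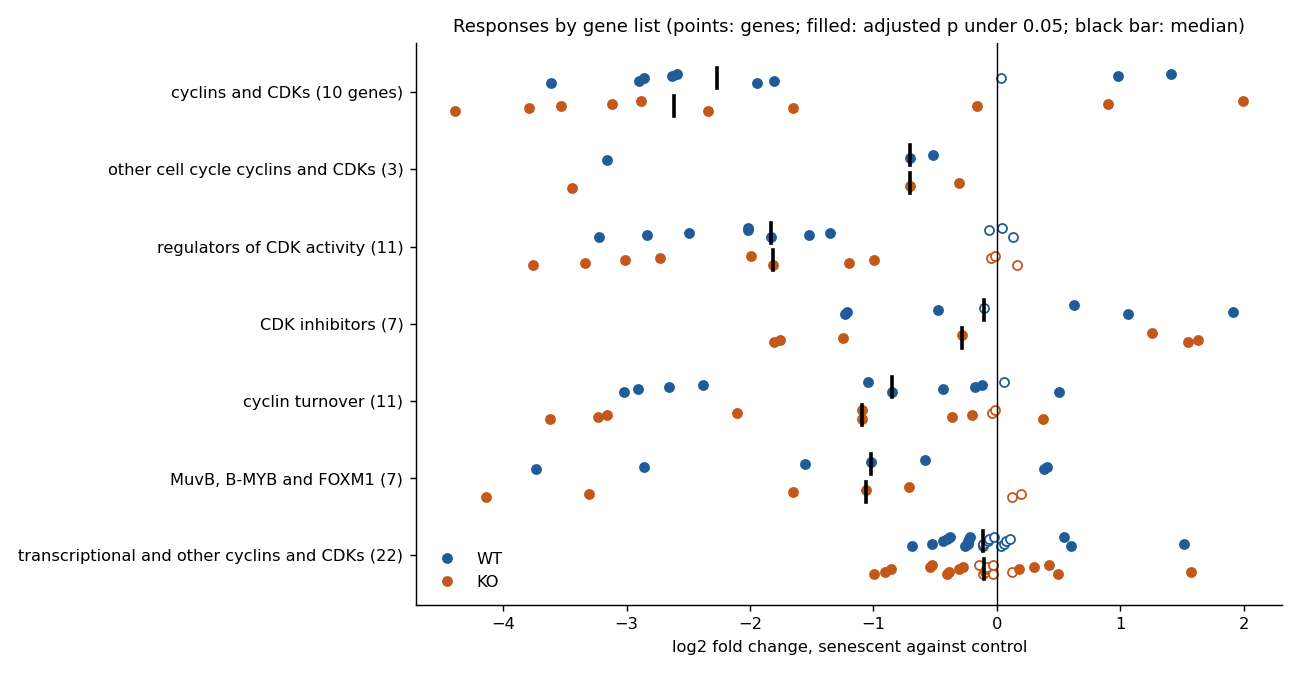
Points give the log2 fold change of each tested gene from control to senescent cells in WT and KO cells, grouped by list. The regulators, turnover genes and MuvB, B-MYB and FOXM1 genes reach down to -3.76, -3.62 and -4.14, while the transcriptional and other cyclins and CDKs stay between -0.997 and 1.57.

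Genes whose pattern over the 12 libraries was most like that of the members were sought among the 10936 genes whose mean reached 5 CPM. The measure was Pearson's r of log2 CPM, given without a p because the genes share the same libraries and the large step between conditions. For Ccnd1 these were Serpinb9b (0.996), Vps26a (0.995) and Maff (0.995), for Ccnd2 Clip3 (0.996), Ptprg (0.995) and Tns1 (0.993), and for Ccne1 Tubb5 (0.997), Ckap4 (0.997) and Galk1 (0.996). Cdk2 was most like Kif22, Brca1 and Kif4, and Cdk1 most like Dlgap5, Ube2c and Kif22, each at 0.999. For Ccnd3, which varied little, the highest values were 0.864 for Eif1b, 0.861 for 2310022B05Rik and 0.858 for Anapc2.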

How the data were processed

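The deposited values were raw counts per gene, 1 table per genotype, made by the authors from paired reads of poly(A) libraries (NEBNext Ultra II). Reads were prepared with bcl2fastq 2.17 and Trimmomatic 0.36 and mapped with STAR 2.5.2b to GRCm38, per the submitters' processing notes, and uniquely mapped reads over exons were counted with featureCounts. The use of strand and the annotation release are not given in the sources used here, so genes with overlapping or copied exons have uncertain counts. The authors tested with DESeq2.

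Here all 12 libraries were fitted together with edgeR 4.0.16 under R 4.3.3 (limma 3.58.1, TMM, filterByExpr, robust quasi-likelihood F-test, 1 mean per group), and p-values were adjusted by the Benjamini-Hochberg method over the 17416 genes tested. In 5 comparisons genes passed at an adjusted p under 0.05 and were called with a log2 fold change also over 1 in size. CPM used TMM-scaled totals, and floors cover counting error only. The fit was tested on simulated counts of the WT comparison (16973 genes), where 82.5% to 100% of the changed genes passed, by fold size, and 0.083% of the unchanged ones. The simulation changed 40 to 59 genes per fold size and left 16775 unchanged. Far more genes changed in the data, so it does not test the scaling of the libraries. Shares within families were compared by exact permutation within genotypes.

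Named genes were the 10 members, Arntl, up to 4 genes of each list (the 2 lowest and 2 highest WT log2 fold changes, plus Cdk4, Cdk6, Wee1 and Cdkn1a) and the 3 most similar genes for each of 6 members. Beyond this rule, Cdc25a, Cdc25b and Cdkn2a and the markers Fn1, Col1a1 and Dcn were named after their values were seen. Of the identifiers, 48970 were matched to a symbol. Members and lists were chosen with earlier results of these data known. Alternatives were DESeq2 1.42.0, its size factors, totals without TMM, no filter, fewer libraries, a replicate block and leaving out each library.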

Additional observations from a re-analysis of the deposited data

Results flagged for a closer look

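For 6 of the 10 genes the response to senescence differed between KO and WT cells by the interaction test (edgeR QL, 3 libraries a group). The KO log2 fold change less the WT one was 0.58 for Ccnd1, -0.77 for Ccna2, -0.89 for Ccnb1, -0.67 for Ccnb2, -0.52 for Cdk1 and -0.40 for Cdk2. For each of them all 3 KO senescent libraries lay on 1 side of all 3 WT senescent libraries, while the control libraries of the genotypes overlapped. This describes the same values that the test used and adds no support to it. The share of all genes with such a separation was not counted. None of them reached a log2 value of 1 in size. With a library left out the test was no longer passed by Ccna2 (without KO senescent replicate 3), by Cdk2 (without WT senescent replicate 3) and by Ccnb2 (without any of WT control replicates 1 and 2, WT senescent replicates 2 and 3 or KO senescent replicates 1 and 3).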

How the results depend on the processing

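Of the counts and shares of the report, 308 values under another setting stayed within 1.5 times the reported count or on the same side of the threshold and 24 did not. With library totals without TMM, 2 members were called higher in WT and 2 in KO senescence, Ccnd2 passing the fold threshold, and genes passing upward came to 2 regulators, 2 turnover genes and 8 transcriptional and other cyclins and CDKs in WT (with 5 of the last passing downward), and to 2 regulators, 2 turnover genes and 1 MuvB gene in KO cells. With DESeq2 size factors 1 regulator rose in KO cells. In the interaction, regulators passing downward came to 2 with DESeq2, 2 without TMM and 3 without the filter, inhibitors passing upward to 2 with DESeq2 and 2 without the filter, turnover genes passing downward to 2 with DESeq2, 0 with its size factors, 2 without TMM and 2 without the filter, MuvB genes passing downward to 0 with size factors and 2 without the filter, and transcriptional genes passing upward to 4 with DESeq2. The cause of these changes was not tested.

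The replicate numbers did not pair the samples (correlations of deviations from the group means from -0.125 to 0.108 within a genotype and from -0.0628 to 0.0758 across genotypes). With the replicate number as a block within each genotype, the interaction gave 2 regulators and 0 MuvB genes passing downward, and Ccne2 passed at -0.28 between senescent genotypes with a block across them.

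Leaving out 1 library at a time, members called higher in WT senescence numbered 1 to 2 (2 without WT control replicate 3), and members passing downward in the interaction 3 to 6 (3 without WT senescent replicate 3 or KO senescent replicate 3, and 6, with Ccnd3, without KO senescent replicate 2). Regulators passing upward numbered 0 to 1 in WT and 0 to 1 in KO cells, and MuvB genes passing upward in WT 1 to 2. In the interaction the ranges were 0 to 1 for other cyclins and CDKs upward, 1 to 2 for regulators downward, 1 to 2 for inhibitors upward, 0 to 3 for turnover genes and 0 to 1 for MuvB genes downward, and 1 to 3 for transcriptional genes upward. The Ccnb1 share difference ranged from -3.42 to -1.69 and passed without WT senescent replicate 1. Small differences that had not passed changed sign: Ccnd3 in WT senescence (-0.005 to 0.0614) and between senescent genotypes (-0.0833 to 0.0301), and between control genotypes Ccnd1 (-0.0995 to 0.0557), Ccne2 (-0.1075 to 0.0326), Ccna2 (-0.0511 to 0.1733), Ccnb1 (-0.1688 to 0.0767), Ccnb2 (-0.2298 to 0.0245), Cdk1 (-0.0213 to 0.1488) and Cdk2 (-0.0411 to 0.0756). The fall of Ccnd3 in KO cells did not pass with DESeq2, without TMM, with only the libraries compared, or without KO control replicates 1 or 2 or KO senescent replicate 1. The excess of Ccne1 in KO senescent cells did not pass without TMM, without any of the 3 WT senescent replicates or without KO senescent replicate 3. Ccne2 passed between senescent genotypes without TMM or without the filter.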
